A study of Homo sapiens with 14 samples.

Results

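PANC-1 is an established human cell line from a carcinoma of the pancreatic duct, and its unstimulated state is described here. Of 14 expression arrays in the series, the 4 of untreated control cells were taken by their titles, and the other 10 were left aside. Per the labels, control cells were grown in 10% serum, kept for 24 h in 1% serum and then given vehicle for 48 h with no TGFb1 (a cytokine that drives epithelial cells toward a mesenchymal state) and no inhibitor. From each sample 200 ng of RNA was copied from the 3′ end and hybridised to an Affymetrix array. The replicates are labelled biological, and the fourth was profiled in addition to the planned 3. All come from 1 line, so the spread below is that between cultures of the same tumour cells, not between tumours. No serum-fed cells and no normal duct cells were among these arrays, so the state described is that of serum-starved tumour cells.

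Duct cells line the channels that carry pancreatic juice, and they are known for keratin 8, 18 and 19 filaments, for mucins and for the secretion of bicarbonate. Acinar cells make the digestive enzymes of that juice, and islet cells make hormones. Carcinoma lines of the duct usually keep the keratins, and some of them, PANC-1 included, are known for also carrying vimentin and for low E-cadherin, the marks of a partly mesenchymal cell.

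Levels are log2 intensities, so that a step of 1 is a doubling. An array has no true zero, because every probe gives some signal. The signal of 333 olfactory receptor genes, which serve smell in the nose, was therefore taken as the background: their means over the 4 arrays had a median of 4.86 and a 95th percentile of 6.43. Genes with a mean up to 6.43 are called near background, those from 9.43, which is 3 log2 units or 8-fold above that limit, are called bright, and those between are called intermediate. Of the olfactory receptor genes, 17 lay above the limit by this definition, and OR2A14 reached 9.22, so a single gene just above it is not shown to be expressed. Probes differ in how strongly they bind, and a higher reading of one gene than of another does not show more transcript.

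Of 18129 genes, 6308 (34.8%) were near background, 6658 (36.7%) were intermediate and 5163 (28.5%) were bright. On all 4 arrays singly, 5918, 5818 and 4769 of them lay in the same band as their mean. The SD over the 4 arrays had a median of 0.118 near background, 0.140 in the intermediate band and 0.125 in the bright band, which is small beside the width of the bands. CHADL (6.43), GNG13 (6.43) and SLC7A10 (6.43) lay just below the background limit, so their band is set by differences under 0.01. Where a gene had several probe sets, the one with the highest mean was kept. The others often disagreed, since 57.6% of intermediate and 21.8% of bright genes with several probe sets had at least 1 near background. Counts of bright genes in the groups below are to be read beside the 28.5% of all genes, and counts near background beside 34.8%.

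**Figure D1:**
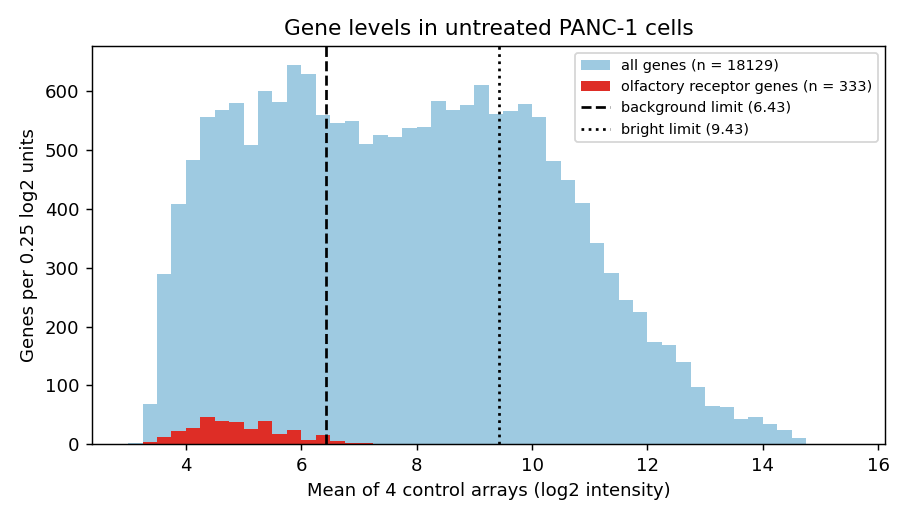
Number of genes by the mean log2 intensity of the 4 control arrays, in steps of 0.25, for all 18129 genes and for the 333 olfactory receptor genes. The dashed line is the background limit (6.43) and the dotted line the bright limit (9.43); the olfactory receptor genes lie mostly left of the dashed line, with a median of 4.86.

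The bright end was filled by the machinery of translation, mitochondrial transcripts, the cytoskeleton and ferritin. RPS16, a protein of the small ribosomal subunit, gave the highest mean, with 15.06, 15.08, 15.06 and 15.04 on control 1 to 4. The mitochondrial gene ND4 of respiratory complex I read 14.85, 14.96, 14.90 and 14.79, and the elongation factor EEF1A1 read 14.68, 14.72, 14.70 and 14.68. All 4 arrays lay within 0.2 of each other for these genes. The 20 highest means, from 14.41 to 15.06, also held RPS2, RPLP1, RPL32, RPL41, RPL37A, RPS15A, RPL10, RPLP2 and RPL28 of the ribosome, and the nucleolar methyltransferase FBL. The others among them were ND1 of complex I, ferritin light chain FTL, the metal-binding MT2A, vimentin (VIM), the lysosomal precursor PSAP, S100A6 and TPT1.

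Of 66 measured genes of cytosolic ribosomal proteins, 63 were bright, against 28.5% of all genes, with a list median of 14.01 and a median SD of 0.0481. RPL10L and RPL3L, copies known to be used in testis and muscle, were near background, and so was RPL27A at 5.41, a subunit of every ribosome, which had a single probe set. Among genes held as translation factors, 16 of 18 were bright, with TPT1 (14.42), EIF1 (14.41) and EEF1A1 at the top. TPT1 was counted there, although it is named for the control of its own translation and is not such a factor. PABPC3, a testis form of the poly(A) binding protein, was at 6.20. Of 31 nuclear genes for subunits of oxidative phosphorylation, 26 were bright, led by COX6A1 (14.04), NDUFA1 (13.73) and COX7A2 (13.65). The 3 subunits near background, COX4I2, COX7A1 and COX7B2 (3.49), are forms known from lung, muscle and testis. Several ribosomal readings rest on probe sets that also match related sequences: with those left out, RPS16 read 12.1, EEF1A1 read 9.39 and TPT1 read 4.16.

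Sequence before the start site was a feature that the bands did not use. RefSeq promoters of build GRCh38.p14 were found for 14421 of the genes, and the 250 bases before the first listed start were read. The dinucleotide CG is rare in most of the genome and is kept in CpG islands, so the observed count was divided by the count expected from base composition. This CpG ratio had a median of 0.391 near background, 0.781 in the intermediate band and 0.855 in the bright band. It was above 0.6 in 36.2%, 72.6% and 87.0% of genes of these bands. RPS16 and ALB, the liver's albumin gene (mean 4.89), are shown as a bright gene and one near background, with every CG in capitals. The RPS16 promoter (chr19:39435950-39436199, minus strand) holds 24, a ratio of 0.893, and the ALB promoter (chr4:73404037-73404286, plus strand) holds 3, which at its GC content of 30% is a ratio of 0.545, above the median of its band.
RPS16: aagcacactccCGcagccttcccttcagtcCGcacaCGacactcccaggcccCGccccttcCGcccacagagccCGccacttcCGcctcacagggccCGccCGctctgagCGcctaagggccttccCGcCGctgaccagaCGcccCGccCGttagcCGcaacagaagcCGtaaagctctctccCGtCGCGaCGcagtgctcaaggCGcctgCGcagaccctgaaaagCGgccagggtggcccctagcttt
ALB: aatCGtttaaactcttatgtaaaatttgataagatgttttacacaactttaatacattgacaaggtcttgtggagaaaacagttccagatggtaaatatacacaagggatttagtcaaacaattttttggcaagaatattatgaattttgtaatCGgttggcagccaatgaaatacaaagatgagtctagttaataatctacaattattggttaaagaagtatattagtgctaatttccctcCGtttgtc

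A TATAAA sequence between 40 and 20 bases before the start stood in 6.56% of promoters near background, 2.25% of intermediate and 1.80% of bright ones. The GC box GGGCGG, on either strand, stood in 35.5%, 65.7% and 70.5%, and in 42.3% of all 27303 listed promoters. CCAAT, on either strand, was found in 34.1%, 33.9% and 35.9%, so its share hardly differed between the bands. These are shares of letters in a fixed window, and genes near each other or of 1 family are not independent, so no p-value is given.

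The untreated cells carried the keratins of a simple epithelium together with vimentin. Keratin 18 (KRT18) read 14.05, 14.15, 13.96 and 14.31 on control 1 to 4. Its partner keratin 8 (KRT8) read 13.62, 13.96, 13.66 and 14.05. Control 2 and 4 were above control 1 and 3 for both. Keratin 19 (KRT19), a duct marker, read 12.61, 12.90, 12.57 and 13.50, with control 4 the highest by 0.60 over control 2. Keratin 7 (KRT7) was intermediate at 9.02 ± 0.117 (SD, n = 4), while KRT20 and KRT23 (3.71) were near background. Of 6 simple keratins 3 were bright, and of 8 keratins of stratified or basal epithelia 2 were, KRT10 and KRT80, with KRT15 at 7.93 ± 0.669. KRT8 and KRT18 were read by probe sets that also match related sequences. The lowest means of any of their probe sets were 12.47 for KRT8 and 14.02 for KRT18, so all were bright. Without such sets 1 of the simple keratins was counted as bright, because genes left with no probe set are not counted. Vimentin, the filament of mesenchymal cells, read 14.57, 14.67, 14.62 and 14.54, without a clear high or low array. Nuclear lamin LMNA was bright at 11.89, nestin (NES) just under the limit at 9.34.

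**Figure D2:**
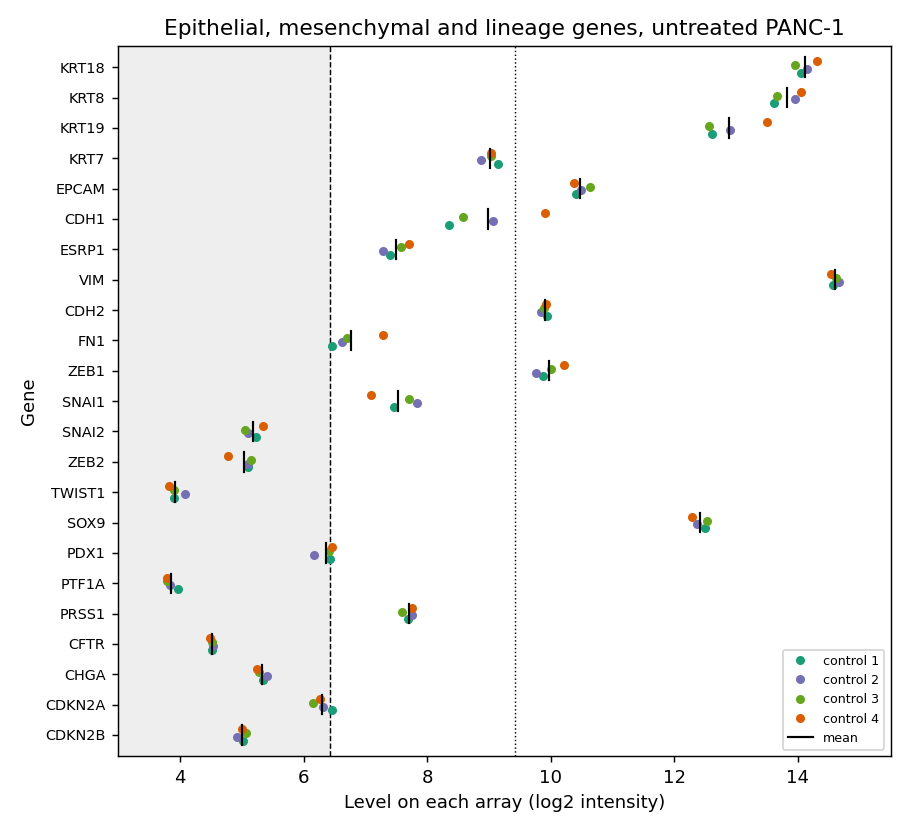
Level of 23 epithelial, mesenchymal and pancreatic lineage genes on each control array (points), with the mean as a bar and the grey area near background. KRT18, KRT8, KRT19, VIM and SOX9 lie at 12 or more, CDH1 spreads from 8.36 to 9.91, and SNAI2, ZEB2, TWIST1, PTF1A, CFTR, CHGA and CDKN2B lie near background on every array.

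Genes of cell contacts gave a mixed picture, with an uneven E-cadherin and a bright N-cadherin. E-cadherin (CDH1), which holds epithelial cells together, read 8.36, 9.06, 8.59 and 9.91, so that it was bright on control 4 alone and intermediate on the others. Its second probe set was near background on average, with 6.01, 6.01, 6.07 and 6.72, and control 4 was again the highest. N-cadherin (CDH2), its mesenchymal counterpart, was bright and even at 9.94, 9.84, 9.89 and 9.93. In a culture, fewer cells that make a transcript and less of it per cell cannot be told apart. The cytoplasmic partners CTNNA1 (12.34), CTNNB1 (12.04) and JUP (11.93) were bright, as were 5 of 12 genes of adherens junctions and desmosomes in all. PKP2, a desmosomal plate protein, was near background at 5.79. Of 13 tight junction genes 7 were bright, led by CLDN1 (12.85), TJP1 (12.17) and CLDN4 (11.78), and 4 were near background, with MARVELD3 at 4.72.

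Epithelial surface genes and their regulators were mixed. The protease inhibitor SPINT2 (13.80), CD24 (11.17) and the adhesion protein EPCAM, with 10.41, 10.49, 10.63 and 10.38, were among 5 of 16 that were bright. That share of 31.2% is close to the 28.5% of all genes. EPCAM was within 0.3 on all arrays. The splicing regulator ESRP1, which sets epithelial exon use, was intermediate at 7.50 ± 0.186, and the epithelial factor EHF was near background at 4.69. On the mesenchymal side, only 1 of 9 transcription factors of epithelial-mesenchymal transition was bright, ZEB1, a repressor of CDH1, at 9.88, 9.77, 10.00 and 10.22. SNAI1 was intermediate with 7.47, 7.84, 7.70 and 7.10. SNAI2 (5.18), ZEB2 (5.03) and TWIST1 (3.92) were near background. Among 19 mesenchymal adhesion and matrix genes 3 were bright: the motility-linked S100A4 (13.45), SPARC (11.47 ± 0.383) and CDH2. Fibronectin (FN1), a matrix glycoprotein, stood close to the limit at 6.46, 6.62, 6.71 and 7.29, and LUM of fibroblast matrix was near background at 3.54.

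Of the 10 duct markers measured, KRT8, KRT18, KRT19, EPCAM, SOX9 and MUC1 were bright, KRT7 and CDH1 intermediate, and SPP1 and CFTR near background. MUC1 (9.44) lay just above the bright limit, through a probe set that also matches related sequences; without such sets it read 6.38. Their summed level, on the log2 scale, ranged from 15.4 to 15.8 over the arrays. The sums for other cell types, from lists of other sizes and other probes that cannot be ranked against these, were 8.72 to 8.85 for 6 acinar markers, 6.07 to 6.22 for 3 islet markers, 9.36 to 9.76 for 7 fibroblast markers, 9.19 to 9.54 for 5 leukocyte markers, 7.83 to 8.03 for 4 endothelial markers and 8.76 to 9.02 for 5 hepatocyte markers. None of these 30 markers was bright. PTPRC (3.83), LYZ (3.97), CD3E, PECAM1 (6.14), CDH5, TEK, DCN, LUM, COL1A2, PDGFRB, GCG and SST were among the 19 near background. The other 11 were intermediate. These were CD68 of lysosomes, used as a macrophage marker, at 8.92, LAPTM5 (6.56), the collagens COL1A1 (8.48) and COL3A1 (7.26), the smooth muscle actin ACTA2 (6.84), VWF (6.61), the liver products APOA1 (7.46), TTR (7.13) and CPS1 (6.73), and the digestive enzymes PRSS1 (7.70) and CELA3A (6.60).

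Most of the factors that set pancreatic lineage were near background, and a few of the ductal ones were bright. SOX9, which maintains duct identity, read 12.50, 12.36, 12.54 and 12.29, and the Notch effector HES1 read 10.99, 11.14, 10.87 and 11.34. Both were bright on every array. They were the 2 bright ones of 12 ductal and progenitor factors (16.7%, against 28.5% of all genes), and 7 of the 12 were near background. FOXA2 was intermediate at 8.45 ± 0.366, with control 4 lowest. PDX1, the master factor of the early pancreas, lay on the background limit with 6.43, 6.16, 6.42 and 6.46, and ONECUT2 was near background at 4.95. Of 4 acinar factors 3 were near background, with PTF1A, which drives the enzyme programme, at 3.97, 3.83, 3.80 and 3.80. Of 10 endocrine factors 6 were near background and 0 were bright, with NKX6-2 (7.56) and MNX1 (7.15) the highest.

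The products of the differentiated pancreas were largely missing from the signal. Of 16 digestive enzymes and zymogen granule proteins 13 were near background, which is 81.2%, against 34.8% of all genes. Trypsinogen 1 (PRSS1) was the highest with 7.69, 7.76, 7.59 and 7.76, although its other probe sets went down to 4.81 and trypsinogen genes are close copies. The elastases CELA2A (6.63) and CELA3A (6.60) were just above the limit. All 4 measured islet hormone genes were near background, with GHRL at 6.02 and GCG, the glucagon gene, at 4.08. Of 9 genes for bicarbonate, ion and water transport in ducts 7 were near background, among them the chloride channel CFTR with 4.52, 4.54, 4.52 and 4.48, while SLC26A6 (7.61) and AQP5 (6.61) were intermediate. Mucins, trefoils and secreted proteins were bright in 3 of 15 cases: AGR2, a folding enzyme for mucins, at 11.46, MUC1 at 9.44 and LCN2 at 9.62, 8.95, 9.56 and 9.63. The intestinal MUC2 was near background at 5.32. Without control 4, MUC1 and LCN2 were intermediate, leaving 1 bright gene.

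PANC-1 is known for traits of neuroendocrine cells, and 0 of 13 genes for secretory granules, hormone processing and peptide receptors were bright. NTSR1, the receptor for neurotensin, was the highest with 9.30, 8.89, 9.27 and 9.01. Synaptophysin (SYP, 8.67) and neuronal enolase (ENO2, 8.56) were intermediate, and chromogranin A (CHGA, 5.32) and SCG3 (4.20) were near background. Neurotensin itself (NTS) was intermediate on control 1 to 3 at 8.07, 8.39 and 8.35 and near background on control 4 at 5.48. Its second probe set gave 7.60, 8.10, 7.73 and 5.30, so both probe sets put control 4 lowest by over 2 log2 units.

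Surface antigens of carcinoma cells were bright in 5 of 16 cases (31.2%), close to the share of all genes (28.5%), with the hyaluronan receptor CD44 (13.76), the tetraspanin CD151 (13.62) and the adhesion protein L1CAM (13.06) highest. PROM1, a marker used for progenitor-like cells, was near background at 4.65. Among 9 ligands of immune checkpoints CD47 (12.34), which signals against engulfment, the adenosine-making NT5E (10.71) and CD276 (9.60) were bright, and VTCN1 was not, at 4.34. The 3 bright ones make 33.3% of this group, against 28.5% of all genes. Of 5 cancer-testis antigens 1 was bright, PRAME, with 9.89, 9.86, 9.77 and 10.17. The other 4 were near background.

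Of 9 measured oncogenes of this cancer 8 were bright, with GNAS (14.04), AKT2 (13.48), YAP1 (12.45) and MYC highest and MDM2 intermediate at 8.69. MYC, the growth regulator, read 12.41, 12.39, 12.49 and 11.62, with control 4 lowest. Of 16 tumour suppressors 6 were bright, led by ARID1A (11.33), TGFBR2 (11.22) and SMAD4, with 9.94, 10.21, 10.16 and 10.24. SMAD4, the shared SMAD of TGFb signals, is lost in many pancreatic tumours and is known to be kept in PANC-1. The line is known to lack CDKN2A, a brake on the cell cycle. Its 3 probe sets had means of 5.08, 5.20 and 6.30, all near background, and the brightest read 6.46, 6.32, 6.16 and 6.27. The neighbouring CDKN2B was at 5.02, 4.93, 5.07 and 5.00. Of the 6 probe sets for MTAP, the next gene along and often lost with them, 4 were near background (3.48 to 4.43), while the others had means of 7.10 and 9.17. The higher one is of a class that can match several transcripts.

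Growth factor receptors were led by AXL (12.18), MET and EPHA2 (11.81). MET, the receptor for hepatocyte growth factor, read 11.73, 11.92, 11.99 and 11.87, and EGFR read 11.23, 11.20, 11.25 and 10.78. Both were bright on every array, while ERBB2 was intermediate at 8.97 ± 0.0259 and ERBB4 near background at 4.96. Of 21 receptors of the IGF, FGF, EPH, AXL and other families 9 were bright, and FLT1, a receptor of endothelial growth factor, was near background at 4.65. RET, the receptor for glial-derived factors, differed most, with 9.32, 9.98, 9.67 and 11.32.

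TGFb signals pass from ligands through type II and type I receptors to SMAD proteins, which act on target genes in the nucleus. Members of each step were above background without added TGFb1. Among 14 ligands and activators the stress cytokine GDF15 (13.57), the latent TGFb binding protein LTBP2 (10.98) and INHBB (10.73) were highest, and BMP2 was near background at 5.29. TGFB1 itself read 9.06, 9.06, 9.01 and 7.73, within 0.1 on 3 arrays and more than 1 lower on control 4. It had 1 probe set. The type II receptor TGFBR2 read 10.97, 11.18, 11.11 and 11.63, and the type I receptor TGFBR1 read 9.89, 9.97, 10.05 and 10.05. Of 10 TGFb and BMP receptors other than TGFBR2, 4 were bright, namely TGFBR1, ACVR1 (10.28), BMPR2 (9.99) and ACVR1B, and BMPR1B (4.84) was near background. These 4 were close to the bright limit, and 0 were bright with a background limit at the 99th percentile. Of 19 SMADs, inhibitors and early targets 11 were bright (57.9%, against 28.5% of all genes). SMAD3, which carries the TGFb signal, was even at 11.99, 11.96, 12.04 and 11.98. ID1 (11.68) and TGIF1 (11.67), an inhibitor of differentiation and a repressor of SMADs, were bright, and ID2 was near background at 5.65.

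Other developmental pathways were mostly intermediate. Of 25 Wnt, Hedgehog and Notch receptors, ligands and inhibitors 7 were bright, which is 28.0% against 28.5% of all genes. DKK1, a secreted Wnt inhibitor, was far above the others at 13.71, 13.80, 13.66 and 13.69, followed by FZD6 (11.13) and NOTCH2 (10.68), with DHH near background at 4.85. Of 9 targets and effectors 1 was bright, the Wnt factor TCF7L2 (11.14), and its relative LEF1 was near background at 4.77.

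The matrix contacts were led by ITGB1, the shared integrin beta chain, at 14.01, with ITGAV (12.34) and ITGA6 (11.83) next. Of 17 integrins 6 were bright, which is 35.3% against 28.5% of all genes. The leukocyte chain ITGA4 was near background at 4.35. ITGB8 was on average near background but read 5.07, 5.75, 5.60 and 7.69, so control 4 alone was above the limit. Of 17 laminins and basement membrane genes 7 were bright, with AGRN (12.71), COL18A1 (11.60) and LAMB1 (11.37) highest and LAMA1 at 4.57. Among 20 proteases and their inhibitors the urokinase PLAU was highest at 13.34, with the lysosomal cathepsins CTSD (12.54) and CTSB (12.44) next, and MMP3 was at 4.03. The gelatinase MMP2 and FBLN1, both held among fibroblast genes, were bright at 11.30 and 9.89, while the other 6 of those 8 genes were near background.

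Interferon-stimulated genes carry antiviral defence and are switched on through the interferon response element. Of 25 measured, 16 (64.0%) were bright without any interferon added, against 28.5% of all genes, with IFITM3 (13.48), IFITM1 (12.19) and IFITM2 (11.98), which block virus entry, highest, and IFI44L at 4.86. With the background limit at the 99th percentile 7 were bright. The median SD of the members was 0.254, against 0.128 over all genes. GBP1, a guanylate-binding defence protein outside this list, read 7.14, 7.56, 7.22 and 9.31. MX1, an antiviral GTPase, read 8.21, 7.78, 7.94 and 9.91, and XAF1 read 8.14, 7.90, 8.14 and 9.74. Control 4 was far above the other arrays for each of them. IFI6 showed the same order of control 4 first, at 9.61, 8.97, 9.11 and 10.55. Of 23 members above background 19 were highest on control 4, where 40.0% of all genes above background were, and 10 were highest by over 0.5, where 4.42% were. The median difference of control 4 from the mean of the other 3 was 0.53, against 0.02 over all genes. Control 2 was lowest in 22 of the 23, where 22.4% of all genes above background were, with a median difference of -0.34. IRF1, an exception, was lowest on control 4 with 10.98, 10.89, 10.87 and 10.65. All 5 probe sets of GBP1 put control 4 highest, but most of them also match related sequences. The set outside that class read 6.05, 6.37, 6.10 and 8.49.

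The letters GAAA, any 2 bases and GAAA, a common core of the interferon response element, stood on either strand in 13 of 19 promoters of these genes (68.4%), in 2.17% of genes above background and in 3.07% of all promoters. They stood in 7.60% of 421 genes that were highest on control 4 by over 0.5 and in 2.02% of 248 that were lowest by as much. The promoters of IFI6 (chr1:27672193-27672442, minus strand), GBP1 (chr1:89065209-89065458, minus strand) and B2M (chr15:44711267-44711516, plus strand) are shown with the matches in capitals. IFI6 has 3, in the region 156 to 93 bases before its start. GBP1 has 1 on the opposite strand, written there as its reverse complement, 127 bases before the start, and B2M has 2 that overlap. A match is a run of letters and not a shown binding site.
IFI6: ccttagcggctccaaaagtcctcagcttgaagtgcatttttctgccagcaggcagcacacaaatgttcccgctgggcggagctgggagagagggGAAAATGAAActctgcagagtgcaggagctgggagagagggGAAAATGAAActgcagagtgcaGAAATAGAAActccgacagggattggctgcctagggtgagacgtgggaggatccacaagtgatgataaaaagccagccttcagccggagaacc
GBP1: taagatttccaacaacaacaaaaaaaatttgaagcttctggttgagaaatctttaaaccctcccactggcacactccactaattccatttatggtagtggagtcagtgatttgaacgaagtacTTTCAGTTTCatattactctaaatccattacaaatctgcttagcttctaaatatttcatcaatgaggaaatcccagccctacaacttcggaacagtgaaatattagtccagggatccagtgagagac
B2M: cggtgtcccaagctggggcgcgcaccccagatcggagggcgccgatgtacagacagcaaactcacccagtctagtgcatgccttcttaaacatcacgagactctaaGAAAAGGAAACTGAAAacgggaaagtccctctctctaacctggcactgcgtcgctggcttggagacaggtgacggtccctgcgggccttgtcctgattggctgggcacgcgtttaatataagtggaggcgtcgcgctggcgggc

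HLA class I proteins show peptides of the cell to T cells, with B2M as their shared light chain. B2M was even at 14.14, 14.16, 14.19 and 14.21. HLA-B read 12.73, 12.44, 12.56 and 13.18, and HLA-C read 12.81, 12.56, 12.65 and 13.00. Of 13 class I and peptide loading genes 10 were bright, and the regulator NLRC5 was lowest at 6.87, 6.76, 6.80 and 7.73. All 13 were highest on control 4, with a median difference of 0.47, although HLA genes are close copies whose probe sets can read each other. Control 2 was lowest in 9 of the 13 (22.4% of all genes above background), with a median difference of -0.22. Without probe sets that also match related sequences, 10 of 10 were highest on control 4. Sets of the class that can match several transcripts were kept in, so reading across HLA genes was not fully removed. Class II genes, which professional antigen-presenting cells use, were bright in 0 of 10 cases, with HLA-DPB1 (8.65), CD74 (7.89) and CIITA (7.64) highest and HLA-DRA at 5.24. Of 6 class II genes above background 1 was highest on control 4 and 4 were lowest, with a median difference of -0.24.

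Chemokines and cytokines were bright in 8 of 27 cases (29.6%), close to the share of all genes. CCL2, which draws monocytes, read 12.95, 13.17, 12.89 and 13.59. CXCL1 (11.28) and LIF (11.06) followed, and TSLP was at 3.99. The neutrophil chemokines CXCL2 and CXCL5 were far higher on control 4 than on the others, with 9.59, 9.68, 9.67 and 11.36 for CXCL2 and 6.85, 7.15, 7.24 and 8.97 for CXCL5. CXCL8 was likewise at 9.60, 10.00, 9.45 and 11.23. IL32 went the other way, with 11.30, 10.84, 10.97 and 10.15. Of 18 members above background 10 were highest on control 4 (40.0% of all genes above background), 6 of them by over 0.5 (4.42% of all genes). The letters GGG, any 2 bases and TTTCC, a core of the NF-kB site, stood in 8 of 20 of these promoters (40.0%) and in 1.73% of all promoters. Those of CXCL2 (chr4:74099196-74099445, minus strand) and CXCL5 (chr4:73998678-73998927, minus strand) hold 1 match each, in capitals, 78 and 91 bases before the start.
CXCL2: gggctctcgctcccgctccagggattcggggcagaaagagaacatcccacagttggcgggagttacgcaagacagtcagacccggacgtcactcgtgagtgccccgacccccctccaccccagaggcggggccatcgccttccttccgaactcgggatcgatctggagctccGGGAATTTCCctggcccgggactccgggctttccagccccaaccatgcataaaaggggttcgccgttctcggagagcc
CXCL5: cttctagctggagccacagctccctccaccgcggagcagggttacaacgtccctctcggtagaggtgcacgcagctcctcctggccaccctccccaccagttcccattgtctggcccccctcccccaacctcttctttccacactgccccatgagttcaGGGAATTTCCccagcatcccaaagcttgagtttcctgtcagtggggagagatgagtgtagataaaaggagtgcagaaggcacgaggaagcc

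Genes that decide the fate of gemcitabine and fluorouracil, drugs used in pancreatic cancer, were mostly bright. Among 11 held as genes of uptake and activation 7 were bright (63.6%, against 28.5% of all genes). UPP1 (13.49), TYMS (12.76) and CMPK1 (11.49) were highest. TYMS was counted in this group, but it is a target of fluorouracil and not a gene of uptake or activation. The uptake carrier SLC29A1 read 10.82, 10.83, 10.79 and 10.49, and the activating kinase DCK read 9.96, 9.88, 9.98 and 9.90. The concentrative carriers SLC28A1, SLC28A2 and SLC28A3 (4.83) were near background. Of 10 genes for inactivation and targets 7 were bright (70.0%), led by DCTD (12.05), NT5C2 (11.92) and RRM2 (11.84), the reductase subunit that gemcitabine inhibits. CDA, which inactivates gemcitabine, was close to the limit at 6.68 ± 0.185, and DPYD, which degrades fluorouracil, was near background at 4.91 ± 0.553.

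ABC transporters pump drugs out of cells. Of 8 measured 4 were bright and 0 near background, with ABCC1 (12.13), ABCC3 (11.03) and ABCC4 (10.77) highest and ABCC2 lowest at 7.34. ABCG2 read 10.08, 10.37, 10.11 and 11.20, and ABCC3 read 10.84, 10.90, 10.89 and 11.49. Control 4 was above the others for both. In all 7 of the 8 were highest on control 4 (40.0% of all genes above background), with a median difference of 0.55, and ABCB1, the exception, was even at 7.71, 7.63, 7.54 and 7.51.

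The compounds used elsewhere in the series act on known protein families, and most of their genes gave transcript signal above background in the vehicle controls. Acriflavine is known to block the pairing of HIF subunits, which act in the response to low oxygen, and to poison topoisomerases. HIF1A read 11.84, 11.86, 12.00 and 12.07, and EPAS1 read 11.93, 11.65, 11.90 and 11.32. Of 9 HIF subunits and oxygen sensors 5 were bright, EGLN1 (10.76) among them, and EGLN3 was near background at 4.77. TOP2A (11.41), TOP1 (11.29) and TOP2B (11.14) were bright and TOP3B intermediate at 7.51. Valproate inhibits histone deacetylases. HDAC1 read 12.26, 12.46, 12.33 and 12.60, and HDAC2 read 12.16, 12.42, 12.34 and 12.22. HDAC6 (9.68) was the third bright one of 11 (27.3%, against 28.5% of all genes), and all others were intermediate down to HDAC11 at 7.20.

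Glucose transporters and enzymes of glycolysis ranged over all 3 bands. Of 26 measured 13 were bright, 8 intermediate and 5 near background. The bright ones were led by GAPDH (14.07), LDHA (13.94) and PGAM1 (13.59), and SLC2A2 (4.15), the carrier of liver and islets, was the lowest of all 26. Of 10 oxygen-responsive genes 6 were bright and 0 near background. ADM, a vasodilator peptide, read 13.48, 13.67, 13.61 and 12.74, and DDIT4, an inhibitor of growth signals, read 12.85, 12.84, 12.84 and 12.31. Both were lowest on control 4, while VEGFA was even at 11.90, 11.93, 12.07 and 12.00.

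The response to amino acid shortage, run by ATF4, was bright in all 16 measured members, against 28.5% of all genes. ASNS, which makes asparagine, read 13.87, 13.86, 13.95 and 13.67, and ATF4 itself read 13.54, 13.53, 13.54 and 13.36. PSAT1 of serine synthesis was at 12.96, and the lowest, the stress factor DDIT3, read 9.98, 10.45, 10.25 and 9.64. Of these 16 members 11 were lowest on control 4, where 35.0% of all genes above background were, with a median difference of -0.20. NRF2 targets, which guard against oxidants, split without a middle: 13 of 18 were bright, with FTL (14.53), TXNRD1 (13.86) and PRDX1 (13.76) highest, and 5 were near background. Those 5 were AKR1C1 (4.22), AKR1B10, AKR1C3, ALDH1A1 and ALDH3A1, enzymes that reduce or oxidise aldehydes and ketones. Of 13 heat shock proteins 9 were bright (69.2%, against 28.5% of all genes), led by HSPA8 (14.10), HSPA5 (13.65) and HSP90B1 (13.55).

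Metallothioneins bind zinc and copper and are switched on by metals through MTF1. MT2A read 14.65, 14.64, 14.64 and 14.57, and the zinc exporter SLC30A1 read 11.54, 11.57, 11.70 and 12.47. MT1E was at 11.02, 10.69, 10.88 and 10.57, and MT1H, at 4.72, was near background. Of 9 genes of this group above background 7 were lowest on control 4 (35.0% of all genes) and 7 were highest on control 1 (26.4% of all genes). On control 4, 2 were highest (40.0% of all genes), SLC30A1 among them. The regulator MTF1 was highest on control 4. Metallothioneins are close copies: without probe sets that also match related sequences, 4 of 6 were lowest on control 4. The metal response element was searched as TGCGCNC or TGCACNC on either strand. The MT2A promoter (chr16:56608334-56608583, plus strand) holds 7 matches, in capitals, and 0.0330% of all promoters hold as many, while 24.7% hold at least 1.
MT2A: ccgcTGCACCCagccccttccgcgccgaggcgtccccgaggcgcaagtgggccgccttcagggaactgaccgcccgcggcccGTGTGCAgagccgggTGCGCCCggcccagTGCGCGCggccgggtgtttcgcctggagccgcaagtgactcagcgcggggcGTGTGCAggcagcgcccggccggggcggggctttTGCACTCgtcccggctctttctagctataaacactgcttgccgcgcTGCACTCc

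After serum starvation and 48 h with vehicle the genes of cell division were still well above background. Of 29 mitosis and replication genes 21 were bright (72.4%, against 28.5% of all genes) and 0 near background. TYMS, PCNA (12.53) and MCM7 (12.00) were highest and CDT1 lowest at 7.98. The proliferation marker MKI67 read 9.33, 9.62, 9.50 and 9.78. Of the 29, 10 were highest and 10 lowest on control 4, near the shares of all genes above background (40.0% and 35.0%), and the median difference was 0.00236. Among 13 G1 cyclins, kinases and inhibitors 9 were bright, with CDK4 (12.42), CCND1 (11.90) and the inhibitor CDKN1A (11.48) highest and CDKN2D at 7.65. Of 22 genes of the BCL2 family, death receptors and inhibitors of apoptosis 15 were bright (68.2%, against 28.5% of all genes) and 0 near background. BIRC2 and XIAP are of the last kind. BIRC2 (13.03), MCL1 (12.40) and XIAP (11.69), which hold off cell death, were highest, and the death-promoting BIK was lowest at 6.56.

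The cytoskeleton was led by ACTB (14.40), ACTG1 (14.40) and TUBB (13.74), with 10 of 17 actins and tubulins bright and the heart actin ACTC1 at 5.01. Without probe sets that also match related sequences 6 were counted as bright, but genes left with no probe set are not counted there. The lowest probe set means of ACTB (13.85), ACTG1 (13.90) and TUBB (12.65) were all bright. Actin-binding proteins and annexins were bright in 23 of 28 cases (82.1%, against 28.5% of all genes). S100A6 (14.41), TMSB10 (14.40) and ANXA2 (14.27) were highest and villin (VIL1), of the gut brush border, was near background. Among genes of other tissues that were above background, MAP2 of neurons (10.03) and myoglobin (MB, 9.59) were bright and haemoglobin HBB (8.29) was intermediate; HBB read 4.11 without probe sets that also match related sequences.

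**Figure D3:**
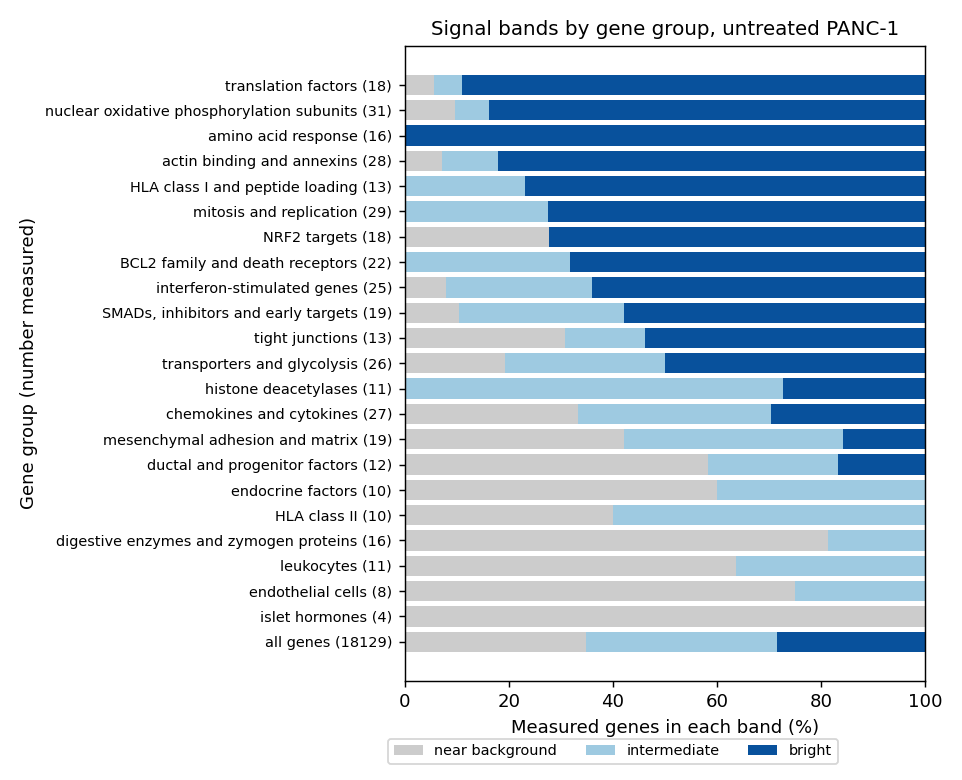
Share of measured genes that were near background (grey), intermediate (light blue) or bright (dark blue) in 22 gene groups and in all 18129 genes, by the mean of the 4 control arrays. All 16 amino acid response genes were bright and all 4 islet hormone genes near background, against 28.5% and 34.8% of all genes.

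The arrays were close to each other in most genes, and 1 of them stood apart. Among 11821 genes above background the median SD was 0.134, and 0.0893 over control 1 to 3. Medians of all probe sets ran from 7.18 to 7.21 on the 4 arrays. The difference of an array from the mean of the other 3 had an SD over genes of 0.203 for control 1, 0.161 for control 2, 0.144 for control 3 and 0.335 for control 4. Pairs among control 1 to 3 differed by over 1 log2 unit in 0 to 4 genes, and pairs with control 4 in 162 to 227. The correlation across genes was 0.994 to 0.996 among control 1 to 3 and 0.977 to 0.982 with control 4, and genes are not independent replicates. Control 4 is the replicate that the series' text gives as additional. Whether it was cultured or hybridised apart from the others is not given in the sources used here, so its difference and any such batch cannot be told apart.

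An SD above 0.5 was found for 204 genes, 1.73% of those above background. Control 4 was the farthest from the median in 198 of them. Over the 204 genes it was the highest array in 133 and the lowest in 70. Without control 4, 8 genes had an SD above 0.5. Control 4 was highest by over 0.5 in 523 genes (4.42%) and lowest by as much in 313 (2.65%), and each other array was so in at most 21. Among the 15 largest SDs, NTS and ABHD14B were lowest on control 4, and MRNIP, GBP1, MX1, CXCL5, EDIL3, B3GAT2, KANSL1L, RET, CXCL2, LGR5, XAF1, CFB and SCG2 were highest. MRNIP, of DNA repair, read 8.67, 8.43, 8.55 and 11.14, with its other probe sets near background and in disagreement. The higher of these read 5.96, 5.93, 5.87 and 6.68, with control 4 highest. The lower read 5.15, 5.05, 4.89 and 4.63, with control 4 lowest. The matrix protein EDIL3 read 9.90, 10.04, 10.29 and 11.95, and the hydrolase ABHD14B read 10.25, 10.14, 10.31 and 8.29. Complement factor B (CFB), another defence gene, read 8.55, 8.23, 8.48 and 10.07. In each, control 1 to 3 lay within 0.4 and control 4 was at least 1.5 away from all of them.

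**Figure D4:**
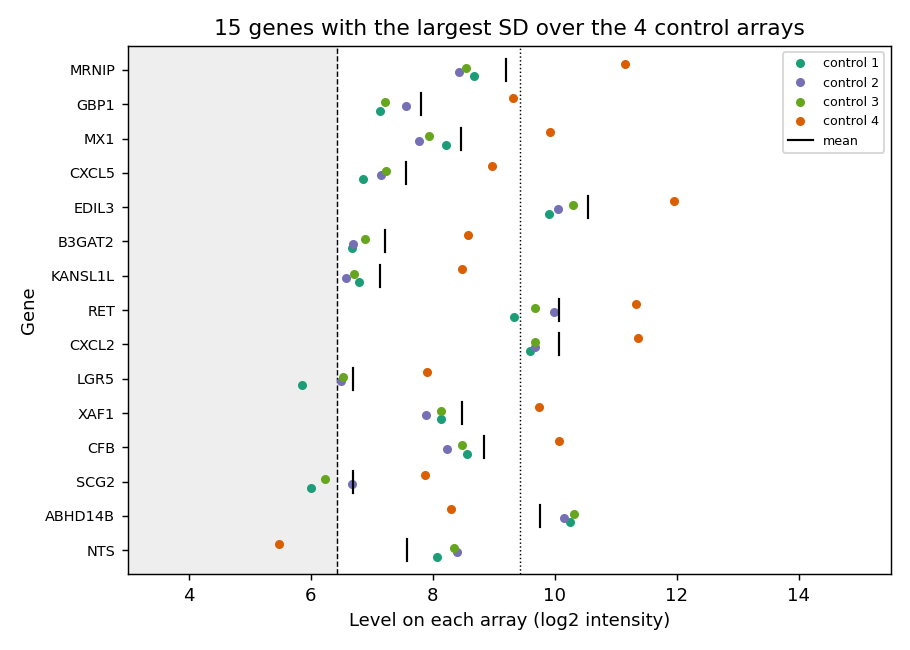
Level on each control array (points) of the 15 genes above background with the largest SD, with the mean as a bar, the grey area near background and the bright limit dotted. Control 4 is the highest array for 13 genes and the lowest for NTS and ABHD14B.

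Control 1 to 3 also differed among themselves in some genes. Of the 8 genes with an SD over 0.5 without control 4, 7 were among the 204 above. The 10 largest SDs over these 3 arrays, from 0.485 to 0.616, were those of S100P, HS6ST2, FDPS, CSTA, CEP290, ASB9, PPP2R3C, SPNS2, TXNIP and SLC46A1. S100P, a calcium-binding protein of pancreatic tumours, read 11.68, 10.51, 11.42 and 10.16, and the protease inhibitor CSTA read 7.33, 6.27, 7.15 and 5.97. Control 1 and 3 were high and control 2 and 4 low for both. FDPS, of sterol synthesis, had the opposite order with 9.97, 11.07, 10.19 and 11.20. TXNIP, which answers to glucose, read 11.46, 10.51, 11.20 and 10.84. A group of 16 measured sterol synthesis genes was put together after FDPS was seen. All 16 were above background and 13 were bright. Control 1 was lowest in 12 of them (28.0% of all genes above background) and control 4 highest in 11 (40.0% of all genes), with ACAT2 at 11.23, 12.06, 11.32 and 12.06. The median differences from the other 3 arrays were -0.31 for control 1, 0.17 for control 2, -0.20 for control 3 and 0.35 for control 4.

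**Figure D5:**
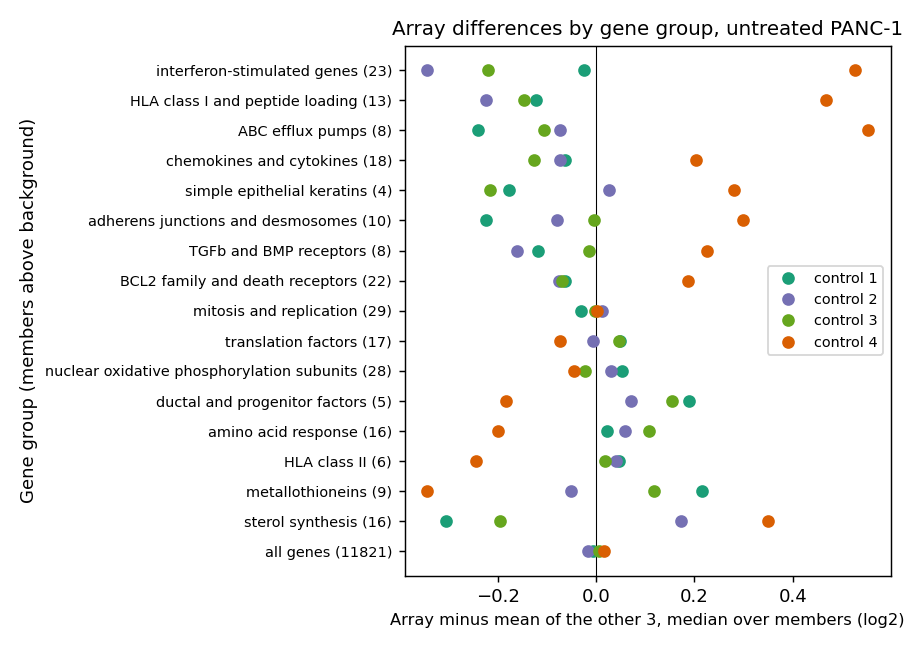
Median over the members of 16 gene groups, and over all genes above background, of each control array's level minus the mean of the other 3 (log2 units). Control 4 lies at 0.53 for interferon-stimulated genes and 0.55 for ABC efflux pumps. It lies at -0.34 for the metallothionein group, which also holds the zinc exporter SLC30A1. All genes lie within 0.02 of 0 on every array.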

How the data were processed

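Values of 4 control arrays of PANC-1 were used. The authors deposited 1 table of log2 intensities, computed by RMA with affy 1.44.0 per the submitters' processing notes. RMA subtracts background, sets the arrays to 1 distribution and fits 1 value to the probes of each set. Which arrays were normalised together is not given in the sources used here. A difference in total RNA cannot be seen after this. The genome build of the probe design is not given there either.

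Of 49193 probe sets 44898 named 1 gene, 1825 several and 2470 were unnamed here, and 44871 matched RefSeq by gene identifier. For each of 18129 genes, 11714 of which had several probe sets, that with the highest mean over the 4 control arrays was kept. Probe sets said above to also match related sequences are those with names ending in _x_at. Leaving them out kept those ending in _s_at, which can match several transcripts. Genes with no other probe set then dropped out, and 17526 genes remained. Bands, SDs and counts were computed in Python 3.11.15 with pandas 2.3.3, checked on simulated data, and figures were drawn with matplotlib 3.10.9. With 1 group no contrast was tested and no p-value is given. The ± values are the SD between these arrays, n = 4.

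Members of 59 gene groups in 23 lists (895 entries, 887 genes, 806 measured) were chosen with earlier results of these data known, and the sterol group after seeing the SDs. Named genes followed a rule: the 20 highest means, the 15 largest SDs, the 10 largest SDs over control 1 to 3, the 3 genes nearest each limit on either side, the 3 highest and the lowest of each group, and 40 fixed markers, of which 37 were measured. The rule's genes fill 262 of the 302 names; the other 40 were chosen after their values were seen: ABCB1, ABCG2, ACAT2, ACTA2, ACVR1B, AKR1B10, AKR1C3, ALDH1A1, ALDH3A1, CD3E, CDA, CDH5, CFTR, COL1A1, COL1A2, COL3A1, COX4I2, COX7A1, DCK, DCN, IFI6, IL32, IRF1, ITGB8, KRT20, LAPTM5, LYZ, MTAP, MTF1, OR2A14, PDGFRB, RPL10L, RPL27A, RPL3L, SLC28A1, SLC28A2, SLC29A1, SPP1, TEK and TGFB1. Alternatives were other limits, other choices of probe set, a common median and each array left out.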

Additional observations from a re-analysis of the deposited data

Results flagged for a closer look

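For 38 of the genes named here, 1 array lay far from the other 3: its gap to the nearest of them, as a share of the range of all 4, was above Dixon's critical value at the 95% level. Chance gives such a gap in about 1 of 20 groups of 4, and over all 11821 genes above background 1016 (8.59%) had one, 769 of them on control 4. No cause was tested for any of them.

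Control 4 was the distant array for 31 of the 38. On its high side the gap share was 0.963 for CPS1, 0.953 for CXCL2, 0.91 for ABCC3, 0.909 for MRNIP, 0.906 for PLAU, 0.893 for B3GAT2 and 0.89 for KANSL1L. The share was 0.88 for MB, 0.877 for NLRC5, 0.876 for PCNA, 0.868 for BMPR2, 0.867 for XAF1, 0.854 for S100A4, 0.847 for RPL27A, 0.845 for LEF1 and 0.83 for MUC1. The sizes differ widely: MRNIP was 2.59 log2 units above the mean of the other 3 arrays, CXCL2 1.72 and XAF1 1.69, while PCNA and MUC1 were 0.14 above, so that a large share can stand for a small step.

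On the low side of control 4 the share was 0.975 for DDIT4, 0.973 for ATF4, 0.969 for FOXA2, 0.963 for TGFB1, 0.961 for KRT80, 0.918 for ABHD14B, 0.897 for CHADL, 0.894 for EGFR and 0.89 for NTS. It was 0.878 for MYC, 0.872 for EIF1, 0.857 for COL1A1, 0.856 for SLC29A1, 0.851 for SYP and 0.85 for ZEB2. The difference of control 4 from the mean of the other 3 was -2.79 for NTS, -1.94 for ABHD14B, -1.32 for TGFB1, -0.81 for MYC, -0.73 for FOXA2 and -0.53 for DDIT4.

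For 7 genes another array was the distant one. Control 2 was high for COX7B2 (0.892) and low for LCN2 (0.89), HSPA8 (0.851) and PDX1 (0.847). Control 3 was high for ALDH3A1 (0.851) and low for COL1A2 (0.937) and CIITA (0.864).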

How the results depend on the processing

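The bright count of 5163 fell to 2770 with the background limit at the 99th percentile, to 2963 with the bright limit 4 log2 units above background and to 3252 with the mean of a gene's probe sets. The intermediate count of 6658 became 4319 with the bright limit 2 units above background. The count of genes with an SD over 0.5 (204) became 113 with the mean of probe sets and 3 with an SD limit of 1. It ranged from 8 to 364 when 1 array was left out, with 8 without control 4 and 313, 328 and 364 without control 1, 2 and 3. The other 77 counts and medians stayed within 1.5 times of the value reported, among them the near-background count (5537 to 8688) and the median CpG ratio of bright promoters (0.847 to 0.860). Counting each probe set separately, an alternative chosen after seeing the data, gave 39.0% near background, 39.1% intermediate and 21.9% bright. Of 2655 list counts under an alternative 268 moved by over 1.5 times, 81 of them with the 99th percentile, 69 with the mean of probe sets and 2 without control 4. No alternative was run for the sterol group. Of 3282 gene means 235 moved by more than the SD over arrays, 202 of them with the mean of probe sets. The number of arrays and the missing zero of an array limit the precision, not a read depth. No paired analysis was possible because only 1 group was described and no test was run.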
